A study of Mus musculus with 45 samples.

Results

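Genomic imprinting marks a gene according to the parent it came from, so that mainly the maternal or mainly the paternal copy is expressed. Many imprinted genes act on growth before birth: several paternally expressed ones promote it, and several maternally expressed ones restrain it. Imprinting is set by differences in DNA methylation between the parental copies, and it often acts on clusters of neighbouring genes. The arrays read the summed RNA of both copies, so parental origin was not measured here.

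The imprinted growth genes described here were chosen by name from a list of 9 genes, of which 8 had a row in the authors' model table: Igf2, H19, Cdkn1c, Mest, Dlk1, Plagl1, Peg3 and Zim1. Grb10, an adaptor protein of insulin and growth factor receptors, has no row there and was not analysed here. That table holds 9626 of the 28944 probe sets with a value and was filtered on variance, so a gene had to vary between groups to be described. The 9 genes were listed with earlier results of these data known. Each of the 8 genes is read by 1 probe set, and each was detected above background on all 45 arrays. Igf2, H19, Cdkn1c, Peg3 and Zim1 lie on mouse chromosome 7, Plagl1 on 10, Dlk1 on 12 and Mest on 6.

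The study followed the prominences that form the mouse face, the frontonasal, maxillary and mandibular, each split into its surface ectoderm and the mesenchyme beneath it. Ectoderm was sampled from the frontonasal and maxillary prominences at E11.5 and E12.5 (E for embryonic day) and from the mandibular prominence at E10.5, E11.5 and E12.5. Mesenchyme was sampled from the frontonasal and mandibular prominences at all 3 ages and from the maxillary prominence at E11.5 and E12.5. These 15 groups hold 3 biological replicates each, every replicate being tissue pooled from several embryos. All groups were wild-type C57BL6/J mice, an inbred strain, and no group was mutant or treated; the layers were parted by Dispase II digestion and peeling. RNA was read on Affymetrix Mouse Gene 1.0 ST arrays, whose deposited values are on a log2 scale, so that a difference of 1 is a 2-fold difference.

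RefSeq promoter windows (GRCm38.p6, 250 bases before to 50 bases after a start of transcription) held 7 of the 9 listed genes, H19 and Cdkn1c not among them. The 4 windows printed here belong to the 4 genes that differed most between the mandibular and the other prominences, each of which has a single window, and capitals mark the CG pairs, the bases that carry DNA methylation. Zim1 (chr7:6696383-6696682, minus strand) has 20 CG pairs, Peg3 (chr7:6730370-6730669, minus strand) 13, Plagl1 (chr10:13090582-13090881, plus strand) 26 and Dlk1 (chr12:109452573-109452872, plus strand) 9, against a median of 7 over 32851 RefSeq windows. The starts of Peg3 and Zim1 are 34.0 kb apart on the same strand.
Zim1: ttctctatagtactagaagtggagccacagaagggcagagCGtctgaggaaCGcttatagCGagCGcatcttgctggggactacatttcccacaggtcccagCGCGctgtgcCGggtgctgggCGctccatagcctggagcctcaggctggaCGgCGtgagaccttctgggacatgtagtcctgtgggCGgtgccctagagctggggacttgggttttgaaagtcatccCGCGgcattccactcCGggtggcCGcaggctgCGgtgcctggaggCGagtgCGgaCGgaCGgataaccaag
Peg3: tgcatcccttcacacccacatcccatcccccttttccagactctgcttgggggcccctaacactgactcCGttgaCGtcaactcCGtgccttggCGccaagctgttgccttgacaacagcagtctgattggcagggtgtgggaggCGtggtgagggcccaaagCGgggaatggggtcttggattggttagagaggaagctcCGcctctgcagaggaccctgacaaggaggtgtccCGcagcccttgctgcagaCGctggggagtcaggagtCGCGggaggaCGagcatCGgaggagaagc
Plagl1: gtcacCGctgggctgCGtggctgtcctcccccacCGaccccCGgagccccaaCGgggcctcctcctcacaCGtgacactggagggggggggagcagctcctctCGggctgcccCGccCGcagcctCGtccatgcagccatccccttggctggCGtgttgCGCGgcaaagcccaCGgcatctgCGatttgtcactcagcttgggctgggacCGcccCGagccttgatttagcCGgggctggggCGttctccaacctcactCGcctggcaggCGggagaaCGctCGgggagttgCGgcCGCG
Dlk1: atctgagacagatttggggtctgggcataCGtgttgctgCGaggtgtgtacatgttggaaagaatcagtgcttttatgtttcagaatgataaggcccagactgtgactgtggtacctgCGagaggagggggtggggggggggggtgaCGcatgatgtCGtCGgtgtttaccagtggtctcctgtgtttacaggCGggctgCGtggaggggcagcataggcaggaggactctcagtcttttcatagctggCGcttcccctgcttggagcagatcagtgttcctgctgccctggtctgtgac
GGGCGG, the core of an Sp1-type GC box, was searched on both strands and was found in the Zim1 and Plagl1 windows and in 35.7% of all windows, and its CG is counted among the CG pairs. CCAAT was found in the Peg3 window and in 37.4% of all windows. TATAAA was found in none of the 4, against 13.6% of all windows. These are matches of letters, and methylation of these windows was not measured.

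Between 76.0% and 91.7% of the probe sets were detected per array, and the array medians lay between 5.97 and 6.22. Replicate 1 of maxillary mesenchyme at E12.5, replicate 2 of frontonasal ectoderm at E11.5 and replicate 3 of frontonasal ectoderm at E12.5 stood apart from their groups, with residuals over 1.5 times the usual size. Leaving out these 3 arrays together moved no difference of an imprinted growth gene by more than 0.09 on the log2 scale. The labelled layers were checked against marker genes. All 12 epithelial markers were higher in ectoderm and all 10 cranial mesenchyme markers were higher in mesenchyme. Frontonasal mesenchyme had a mean epithelial marker value of 7.86, 7.80 and 8.59 at E10.5, E11.5 and E12.5, against 5.94 to 6.60 in mandibular mesenchyme and 10.14 to 10.53 in ectoderm. Ectoderm in turn held cranial mesenchyme markers at 5.91 to 7.89, against 9.40 to 10.54 in mesenchyme. In bulk tissue, fewer cells of a type and less RNA per cell cannot be told apart.

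Mandibular mesenchyme was where these genes were highest. Igf2, H19, Cdkn1c, Dlk1, Plagl1, Peg3 and Zim1 had their highest group mean in mandibular mesenchyme at E12.5, a group that holds the highest mean of 9.35% of the 14472 probe sets tested. Mest had its highest mean in mandibular mesenchyme at E10.5, where 14.1% of the probe sets peak. From the highest to the lowest of the 15 groups, Dlk1 spanned 4.23 on the log2 scale (18.8-fold) and Zim1 3.95 (15.5-fold). Plagl1 spanned 2.37, Cdkn1c 2.23, Peg3 1.94, Mest 1.66 and Igf2 1.64, and H19 had the narrowest span at 0.95 (1.94-fold). Replicates differed far less, with a median SD within a group between 0.04 for H19 and 0.13 for Dlk1. Some of these genes were among the brightest on the arrays. The mean of H19 lay above that of 99.8% of the probe sets, Mest 98.9%, Igf2 98.5% and Cdkn1c 97.7%. Whether the array signal is compressed at such levels, which would narrow a span, was not tested.

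**Figure D1:**
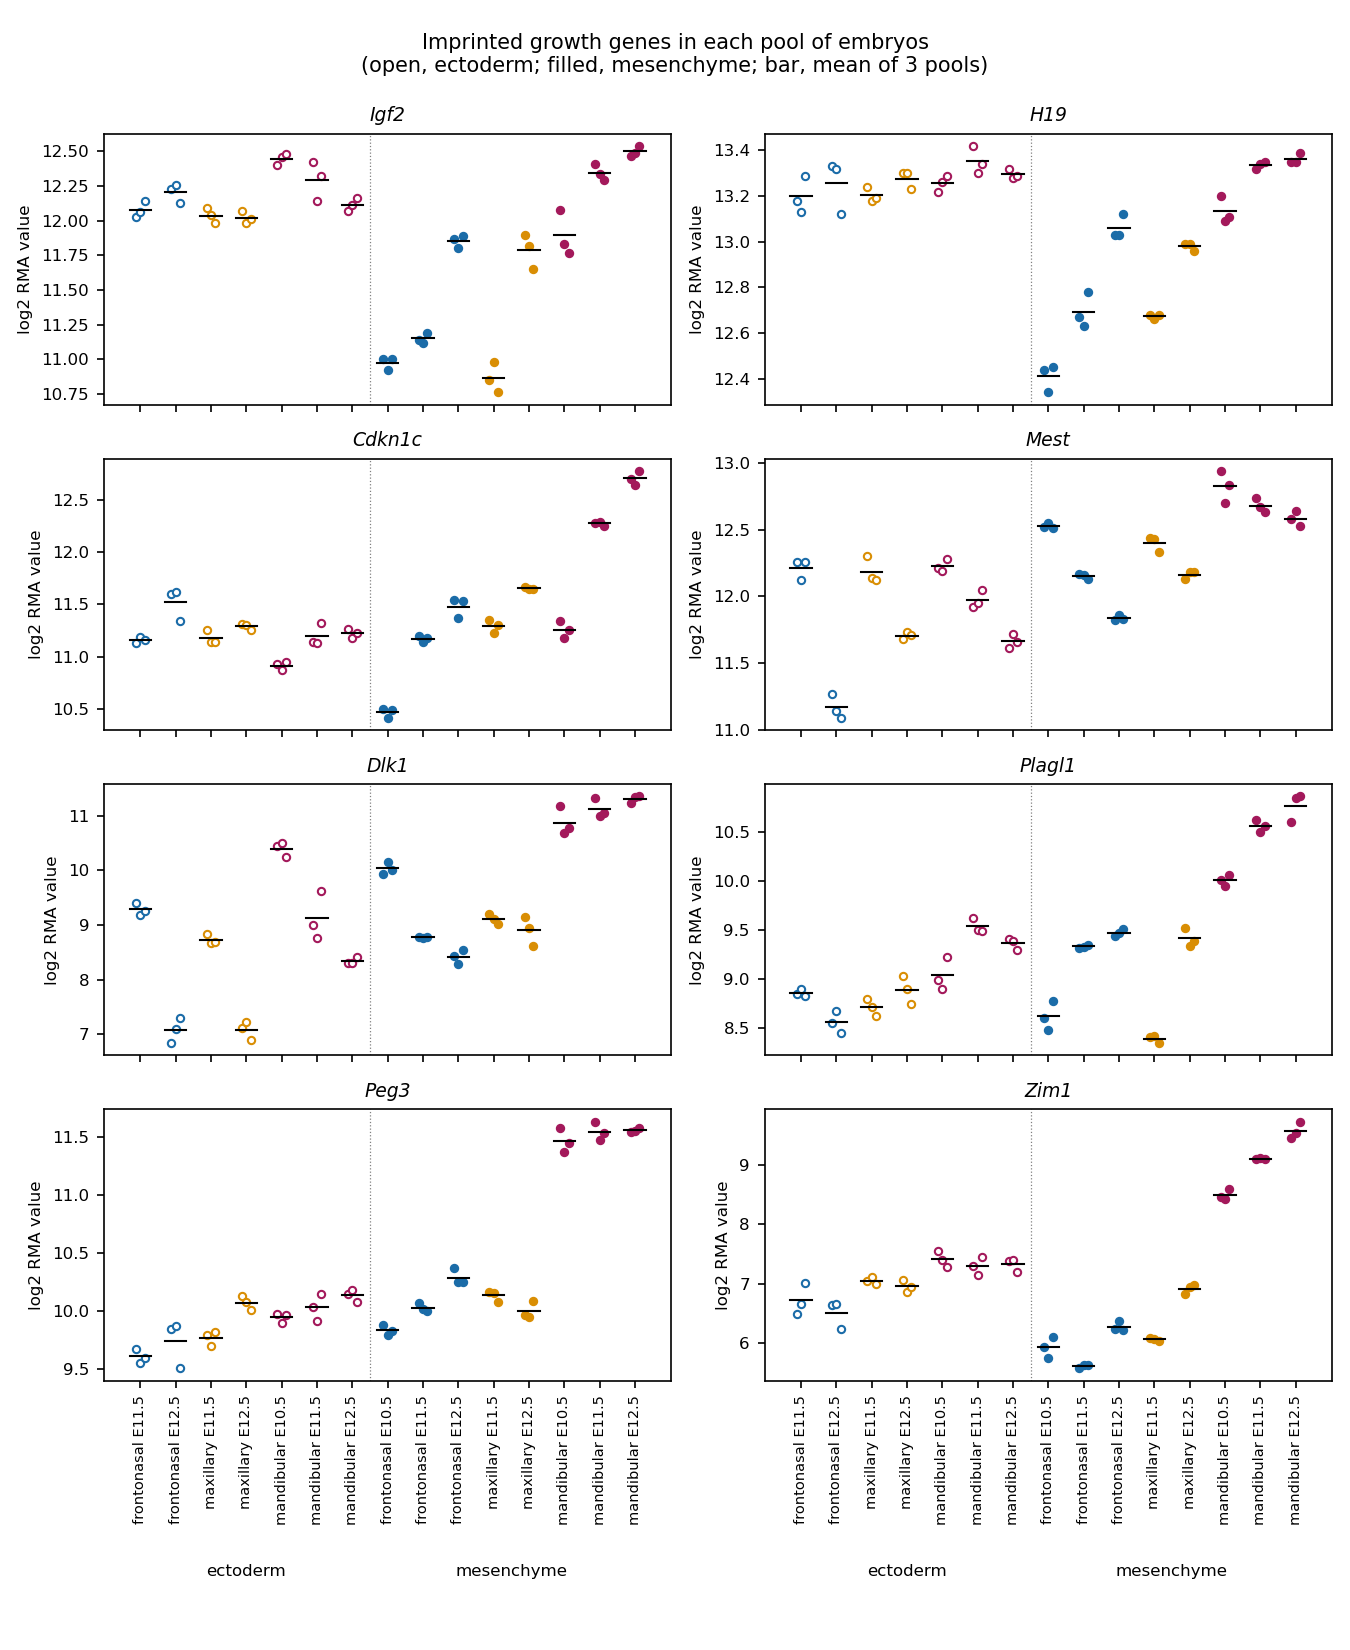
Log2 RMA value of each imprinted growth gene (vertical axes) in every pool of embryos by group (horizontal axes); open circles are ectoderm, filled circles mesenchyme, and bars the mean of 3 pools. The filled mandibular points sit above the filled frontonasal and maxillary points of the same age in all 8 panels, while the order of the open points differs from gene to gene.

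Within mesenchyme, all 8 genes were lower in the frontonasal prominence than in the mandibular prominence over E11.5 and E12.5, and all 8 were lower in the maxillary prominence than in the mandibular prominence. No frontonasal or maxillary array reached the lowest mandibular array for any of them. Among all probe sets tested, 20.3% were called for frontonasal against mandibular mesenchyme, 8.48% as lower, and 9.98% for maxillary against mandibular mesenchyme, 5.84% as lower. Values that were lower with no overlap were found for 3.52% and 2.11% of the probe sets in these 2 comparisons. Probe sets with a symbol here are those that passed the authors' variance filter and have a gene symbol, as the 8 genes do. They were called more often, at 28.0% and 13.8%, and those shares are the closer background. In every comparison and interaction here, their called share was higher than that over all probe sets tested. Both comparisons rest on the same 6 mandibular arrays, so they are not independent. The genes were chosen with earlier results of these data known, so setting their counts beside these shares is a description and not a test. Calls come from limma with Benjamini-Hochberg adjustment over all probe sets tested, at an adjusted p under 0.05, and errors are standard errors of that fit.

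Zim1, a maternally expressed zinc finger gene beside Peg3, differed most. At E12.5 it had log2 values of 6.24, 6.37 and 6.23 in frontonasal mesenchyme and 6.83, 6.94 and 6.98 in maxillary mesenchyme, against 9.44, 9.53 and 9.72 in mandibular mesenchyme. At E11.5 it had 5.58, 5.63 and 5.63 in frontonasal and 6.09, 6.07 and 6.04 in maxillary mesenchyme, against 9.10, 9.11 and 9.10 in mandibular mesenchyme. The mandibular arrays were far above the others at both ages. Over both ages Zim1 was lower by 3.39 ± 0.08 in frontonasal mesenchyme (10.46-fold, limma adjusted p = 1.12e-27) and by 2.84 ± 0.08 in maxillary mesenchyme (7.17-fold, adjusted p = 4.79e-25).

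Peg3, the paternally expressed zinc finger gene next to Zim1, followed the same division with a smaller step. It had 10.37, 10.25 and 10.25 in frontonasal and 9.97, 9.95 and 10.09 in maxillary mesenchyme at E12.5, against 11.54, 11.55 and 11.58 in mandibular mesenchyme. At E11.5 it averaged 10.03 ± 0.04 in frontonasal mesenchyme (SD, n = 3), the maxillary arrays lay between 10.08 and 10.17, and the mandibular arrays between 11.47 and 11.63. Peg3 was lower by 1.39 ± 0.06 in frontonasal mesenchyme (adjusted p = 1.52e-20) and by 1.48 ± 0.06 in maxillary mesenchyme (adjusted p = 5.60e-21).

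Plagl1, also called Zac1, a paternally expressed zinc finger transcription factor, was the gene in which the frontonasal and maxillary prominences parted most at E11.5. It had 9.32, 9.33 and 9.35 in frontonasal and 8.41, 8.42 and 8.35 in maxillary mesenchyme at E11.5, against 10.56 ± 0.06 in mandibular mesenchyme (SD, n = 3). At E12.5 it had 9.44, 9.47 and 9.51 in frontonasal and 9.52, 9.34 and 9.39 in maxillary mesenchyme, against 10.60, 10.84 and 10.86 in mandibular mesenchyme. The frontonasal and maxillary arrays thus overlapped at E12.5 and were well apart at E11.5. Plagl1 was lower than in mandibular mesenchyme by 1.26 ± 0.06 in frontonasal mesenchyme (adjusted p = 3.96e-18) and by 1.76 ± 0.06 in maxillary mesenchyme (adjusted p = 5.56e-22).

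Dlk1 encodes a paternally expressed membrane protein with EGF repeats, related to the Notch ligands and known as an inhibitor of adipocyte differentiation. At E12.5 it had 8.44, 8.28 and 8.54 in frontonasal and 9.15, 8.95 and 8.61 in maxillary mesenchyme, against 11.24, 11.34 and 11.35 in mandibular mesenchyme. At E11.5 it had 8.78, 8.76 and 8.78 in frontonasal and 9.20, 9.10 and 9.02 in maxillary mesenchyme, against 11.32, 10.99 and 11.04 in mandibular mesenchyme. The lowest mandibular value, 10.99, stood far above the highest of the others, 9.20. Dlk1 was lower by 2.62 ± 0.11 in frontonasal mesenchyme (6.13-fold, adjusted p = 9.10e-21) and by 2.21 ± 0.11 in maxillary mesenchyme (4.62-fold, adjusted p = 3.17e-18).

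Igf2 is the paternally expressed insulin-like growth factor of the embryo, and H19 is the maternally expressed long noncoding RNA beside it. Igf2 had 11.87, 11.80 and 11.89 in frontonasal and 11.90, 11.82 and 11.65 in maxillary mesenchyme at E12.5, against 12.47, 12.49 and 12.54 in mandibular mesenchyme. At E11.5 it had 11.14, 11.12 and 11.19 in frontonasal and 10.85, 10.98 and 10.76 in maxillary mesenchyme, against 12.41, 12.34 and 12.29 in mandibular mesenchyme. The gap was thus wider at E11.5 than at E12.5. Over both ages Igf2 was lower by 0.92 ± 0.06 in frontonasal mesenchyme (adjusted p = 1.36e-15) and by 1.10 ± 0.06 in maxillary mesenchyme (adjusted p = 3.51e-17). H19 had smaller differences in the same direction, lower by 0.47 ± 0.05 in frontonasal mesenchyme (adjusted p = 2.62e-10) and by 0.52 ± 0.05 in maxillary mesenchyme (adjusted p = 6.28e-11). Its arrays ran between 12.63 and 13.12 in frontonasal and between 12.66 and 12.99 in maxillary mesenchyme, against 13.32 to 13.39 in mandibular mesenchyme.

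Cdkn1c encodes p57, a maternally expressed inhibitor of cyclin-dependent kinases that holds cells back from division. At E12.5 it had 11.54, 11.37 and 11.53 in frontonasal and 11.67, 11.65 and 11.65 in maxillary mesenchyme, against 12.70, 12.64 and 12.77 in mandibular mesenchyme. At E11.5 the frontonasal arrays lay between 11.14 and 11.20 and the maxillary arrays between 11.23 and 11.35, against 12.25 to 12.29 in the mandibular arrays. Cdkn1c was lower by 1.16 ± 0.05 in frontonasal mesenchyme (adjusted p = 1.58e-19) and by 1.01 ± 0.05 in maxillary mesenchyme (adjusted p = 2.24e-17). Mest, a paternally expressed gene for a protein of the alpha/beta hydrolase family, was lower by 0.64 ± 0.05 in frontonasal mesenchyme (adjusted p = 7.10e-13) and by 0.35 ± 0.05 in maxillary mesenchyme (adjusted p = 1.93e-06). Its arrays ran between 11.82 and 12.17 in frontonasal and between 12.13 and 12.44 in maxillary mesenchyme, against 12.53 to 12.74 in mandibular mesenchyme.

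At E10.5, where the maxillary prominence was not sampled, all 8 genes were again lower in each of the 3 frontonasal than in each of the 3 mandibular mesenchyme arrays, with differences between −2.56 for Zim1 and −0.30 for Mest; 20.9% of the probe sets tested were lower with no overlap there. Zim1 had 5.93, 5.76 and 6.10 in frontonasal mesenchyme, against 8.45, 8.43 and 8.59 in mandibular mesenchyme. Dlk1 averaged 10.03 ± 0.11 in frontonasal mesenchyme and 10.87 ± 0.26 in mandibular mesenchyme (SD, n = 3 each), its highest frontonasal array (10.16) below its lowest mandibular array (10.68). Its gap of 0.84 at E10.5 was smaller than the gaps of 2.34 at E11.5 and 2.89 at E12.5, while the gaps of Peg3 (1.63, 1.51 and 1.27) and Plagl1 (1.39, 1.23 and 1.29) stayed within a narrower range.

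**Figure D2:**
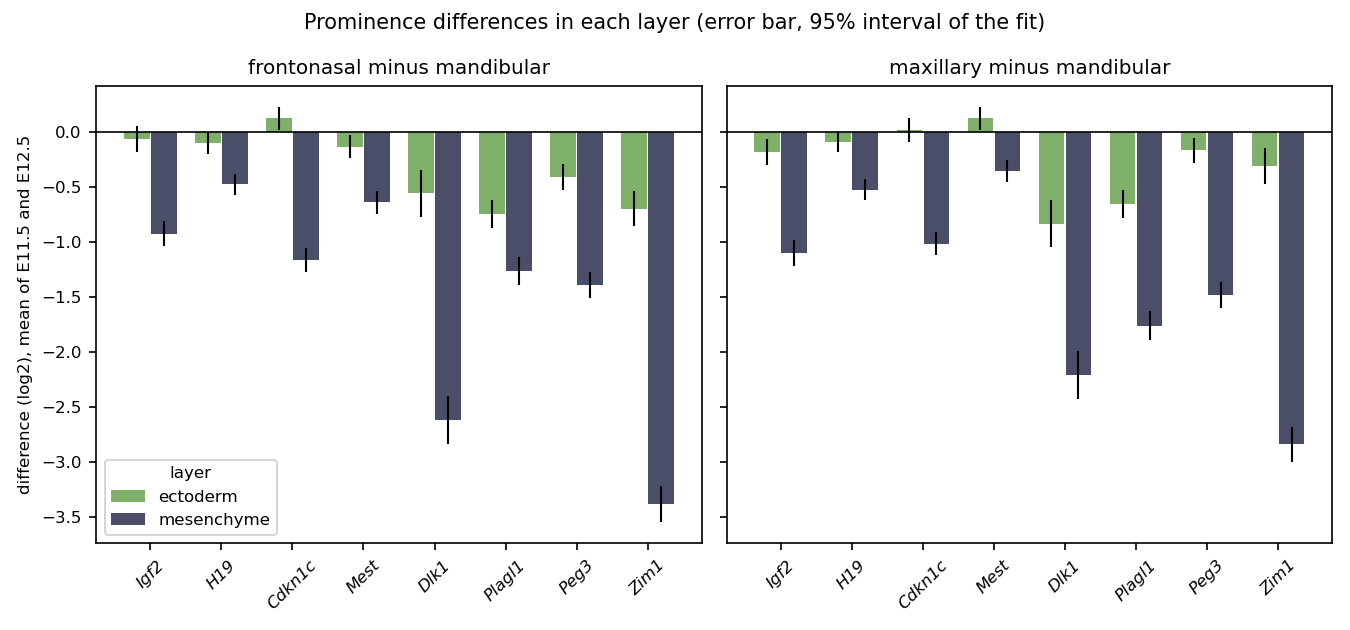
Frontonasal minus mandibular (left) and maxillary minus mandibular (right) difference in log2 value, averaged over E11.5 and E12.5, for each gene in each layer; error bars are 95% intervals of the fit. The mesenchyme bars run down to −3.39 for Zim1, while the lowest ectoderm bar is −0.83 for Dlk1.

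Markers of other cells moved with these comparisons. Skeletal muscle markers were lower than in mandibular mesenchyme for 14 of 15 genes in frontonasal mesenchyme (median difference −1.79) and for 14 of 15 in maxillary mesenchyme (median −1.41). Actc1, a striated muscle actin, was lower by 5.13 in frontonasal mesenchyme, and the mandibular mean of the list was 5.70 at E10.5, 6.72 at E11.5 and 7.96 at E12.5. The muscle list did not separate the prominences at E10.5, with array means of 5.61 to 5.74 in frontonasal and 5.68 to 5.73 in mandibular mesenchyme. The list's array means were 5.28 to 5.50 in frontonasal and 6.09 to 6.42 in maxillary mesenchyme at E12.5, against 7.85 to 8.14 in mandibular mesenchyme, and Chrna1 and Mylpf were undetected in frontonasal mesenchyme at that age. Over the 8 mesenchyme group means, which share arrays and scaling, the correlation with the muscle list was between 0.40 for Mest and 0.85 for Cdkn1c. Epithelial markers were higher in frontonasal mesenchyme for 12 of 12 genes (median 1.86), led by Cldn6 at 3.44 and Epcam at 2.96, while in maxillary mesenchyme limma called 0 of the 12 and 4 had an unadjusted p under 0.05. Neuronal markers were higher for 6 and lower for 2 of 10 genes in frontonasal mesenchyme, and higher for 6 and lower for 1 in maxillary mesenchyme. Cartilage and bone markers were higher for 4 and lower for 3 of 10 genes in frontonasal mesenchyme (median 0.10), and higher for 1 and lower for 7 in maxillary mesenchyme (median −0.44). The part of these cells in the differences was not tested.

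**Figure D3:**
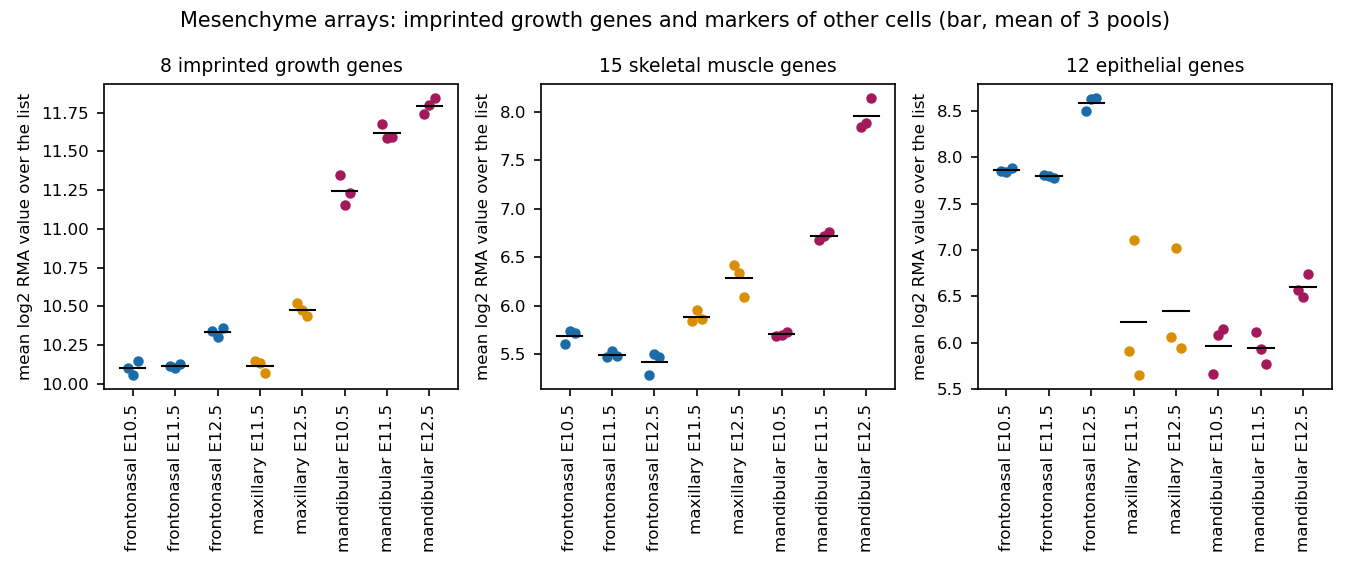
Mean log2 RMA value over the imprinted growth genes and over marker lists (vertical axes) on each mesenchyme array by group (horizontal axes); bars are means of 3 pools. Muscle markers set the mandibular arrays apart from E11.5 on but not at E10.5, and epithelial markers separate frontonasal mesenchyme at every age.

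Between frontonasal and maxillary mesenchyme 6 of the 8 genes were called, 2 as higher and 4 as lower in frontonasal mesenchyme. Of all probe sets tested, 18.8% were called there. For each of the 8 genes this difference was smaller than its differences from mandibular mesenchyme. Zim1 was lower in frontonasal than in maxillary mesenchyme by 0.55 ± 0.08 (limma adjusted p = 1.49e-06), Dlk1 by 0.41 ± 0.11 (adjusted p = 0.00417) and Mest by 0.29 ± 0.05 (adjusted p = 2.85e-05). Plagl1 was higher by 0.50 ± 0.06 (adjusted p = 9.10e-08), a mean of 0.94 at E11.5 and 0.06 at E12.5. Igf2 at 0.18 ± 0.06 (adjusted p = 0.0267) and Cdkn1c at −0.15 ± 0.05 (adjusted p = 0.0413) were called too, but neither call held when the arrays were centred on their medians, nor when any of 9 single arrays (Cdkn1c) or 6 single arrays (Igf2) was left out, with values of −0.16 to −0.12 and 0.14 to 0.17. Peg3 (0.09, 95% interval −0.03 to 0.21) and H19 (0.05, −0.05 to 0.15) were not called. In the same comparison epithelial markers were higher in frontonasal mesenchyme for 12 of 12 genes (median 1.98), cartilage and bone markers higher for 6 and lower for 1 of 10 (median 0.62) and neuronal markers higher for 6 and lower for 3 of 10 (median 0.63). Skeletal muscle markers were lower for 11 of 15 (median −0.39) and cell cycle genes for 4 of 8, and the part of these lists was not tested.

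In ectoderm the same comparisons gave fewer and smaller differences. Frontonasal ectoderm was lower than mandibular ectoderm in 4 of the 8 genes, against 23.1% of probe sets called and 11.8% called as lower. Plagl1 had 8.55, 8.68 and 8.45 in frontonasal ectoderm at E12.5, against 9.41, 9.39 and 9.30 in mandibular ectoderm, and it was lower over both ages by 0.74 ± 0.06 (adjusted p = 3.34e-11). Zim1 had 6.65, 6.66 and 6.24 in frontonasal ectoderm at E12.5, against 7.39, 7.40 and 7.20 in mandibular ectoderm, and it was lower over both ages by 0.69 ± 0.08 (adjusted p = 3.13e-08). The arrays of Plagl1, Zim1 and Peg3 did not overlap between these ectoderms over both ages, where 1.75% of the probe sets tested were lower with no overlap. Dlk1 was lower by 0.56 ± 0.11 (adjusted p = 0.000208) and Peg3 by 0.41 ± 0.06 (adjusted p = 1.46e-06). The other 4 genes were not called, with 95% intervals of −0.18 to 0.05 for Igf2, −0.19 to −0.0011 for H19, 0.02 to 0.23 for Cdkn1c and −0.23 to −0.03 for Mest. Cdkn1c was called without replicate 3 of frontonasal ectoderm at E12.5 (0.17) or of mandibular ectoderm at E11.5 (0.16), and Mest without replicate 1 or 3 of frontonasal ectoderm at E11.5 (−0.14 each) or replicate 1 of it at E12.5 (−0.15).

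Maxillary ectoderm was lower than mandibular ectoderm in 3 of the 8 genes, against 5.04% of probe sets called and 2.01% called as lower. Dlk1 was lower by 0.83 ± 0.11 (adjusted p = 8.52e-07), Plagl1 by 0.65 ± 0.06 (adjusted p = 2.58e-09) and Zim1 by 0.31 ± 0.08 (adjusted p = 0.0153). For Dlk1 the gap was 0.40 at E11.5 and 1.26 at E12.5, when maxillary ectoderm had 7.12, 7.23 and 6.90 and mandibular ectoderm 8.31, 8.30 and 8.42. Zim1 was not called without replicate 3 of mandibular ectoderm at E11.5 (−0.27) or without replicate 2 of maxillary ectoderm at E12.5 (−0.28). Without the 3 arrays that stood apart, 5 of the 8 genes were called, Igf2 (−0.17) and Peg3 (−0.16) among them. Frontonasal ectoderm was lower than maxillary ectoderm in Zim1 (−0.39 ± 0.08, adjusted p = 0.000948), Mest (−0.26 ± 0.05, adjusted p = 0.000516) and Peg3 (−0.25 ± 0.06, adjusted p = 0.00387), where 9.24% of probe sets were called. When the 12 arrays compared were fitted alone, 0 of the 8 genes passed limma's adjusted threshold there and 4 had an unadjusted p under 0.05.

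Cranial mesenchyme markers differed among the ectoderms as well, with group means of 7.80 and 7.44 in frontonasal, 7.69 and 7.89 in maxillary and 7.86 and 6.87 in mandibular ectoderm at E11.5 and E12.5. Of the 10 markers, limma called 3 higher in frontonasal (median 0.28) and 1 higher in maxillary ectoderm (median 0.50) than in mandibular ectoderm. An unadjusted limma p under 0.05 was found for 3 of the 10 in frontonasal and for 7 of the 10 in maxillary ectoderm. In frontonasal against mandibular ectoderm, neuronal markers were higher for 5 and lower for 1 of 10 genes (median 0.70), leukocyte markers higher for 5 of 10 (median 0.27) and cell cycle genes lower for 3 of 8 (median −0.16). In frontonasal against maxillary ectoderm, neuronal and leukocyte markers were higher for 5 of 10 genes each. In maxillary against mandibular ectoderm, 2 neuronal markers were higher and 1 lower. Their part in the ectoderm differences was not tested.

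Between the layers, ectoderm was compared with mesenchyme over the 7 combinations of prominence and age that had both, with 21 arrays a layer. Ectoderm was lower in Dlk1, Peg3, Plagl1, Mest, Cdkn1c and Zim1 and higher in Igf2 and H19, against 69.6% of probe sets called, 33.7% as lower and 35.9% as higher. A share of 8 of 8 called is near that background. Dlk1 had the largest mean difference at −1.21 ± 0.06 (adjusted p = 1.42e-20), followed by Peg3 at −0.81 ± 0.03, Plagl1 at −0.71 ± 0.03, Mest at −0.50 ± 0.03, Cdkn1c at −0.48 ± 0.03 and Zim1 at −0.39 ± 0.04. Igf2 was higher by 0.40 ± 0.03 (adjusted p = 2.74e-14) and H19 by 0.23 ± 0.03 (adjusted p = 3.23e-10). When the frontonasal groups were left out, Zim1's mean was −0.82. Endothelial and erythroid markers were lower in ectoderm for 10 of 10 genes each (medians −2.03 and −2.04), skeletal muscle markers for 14 of 15 and cell cycle genes for 8 of 8, and the part of these lists was not tested.

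These means cover unlike values in the single prominences. The layer difference depended on the prominence for all 8 genes by the interaction test (moderated F over E11.5 and E12.5), against 19.6% of the probe sets. In the mandibular prominence at E12.5, each of the 8 genes was lower in every ectoderm array than in every mesenchyme array, where 27.0% of the probe sets tested were lower with no overlap. In the frontonasal prominence at E11.5, 2 genes were lower with no overlap, against 21.1% of probe sets, 4 were higher, against 23.4%, and 2 overlapped.

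Zim1 changed sign between prominences. At E11.5 frontonasal ectoderm had 6.49, 6.66 and 7.02, against 5.58, 5.63 and 5.63 in frontonasal mesenchyme, a difference of 1.11. Maxillary ectoderm had 7.04, 7.12 and 7.0, against 6.09, 6.07 and 6.04 in maxillary mesenchyme, a difference of 0.99. Mandibular ectoderm had 7.29, 7.15 and 7.45, against 9.10, 9.11 and 9.10 in mandibular mesenchyme, a difference of −1.81. Ectoderm was thus above mesenchyme in both upper prominences and below it in the mandibular one (interaction adjusted p = 5.69e-20). The frontonasal and maxillary differences were 0.24 and 0.05 at E12.5, and the mandibular one −2.23.

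Igf2 and H19 were the pair that was higher in ectoderm. Igf2 differed little among the ectoderm groups, whose arrays ran between 11.98 and 12.48, while the mesenchyme arrays of the same combinations ran between 10.76 and 12.54. At E11.5 its layer difference was 0.93 in the frontonasal, 1.17 in the maxillary and −0.05 in the mandibular prominence. H19 followed with 0.51, 0.53 and 0.02. In the mandibular prominence at E12.5 both were below mesenchyme, Igf2 with 12.07, 12.11 and 12.16 in ectoderm against 12.47, 12.49 and 12.54 in mesenchyme. H19 had 13.32, 13.28 and 13.29 in that ectoderm, against 13.35, 13.35 and 13.39 in mesenchyme, a gap of 0.07.

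Peg3 and Cdkn1c showed a layer difference mainly in the mandibular prominence. For Peg3 it was −1.52, −1.51 and −1.42 at E10.5, E11.5 and E12.5 there, against −0.42 and −0.55 in the frontonasal and −0.36 and 0.07 in the maxillary prominence. For Cdkn1c it was −0.34, −1.08 and −1.48 in the mandibular prominence, against −0.01 and 0.04 in the frontonasal and −0.11 and −0.37 in the maxillary prominence. Both interactions passed the test (adjusted p = 1.05e-14 for Peg3 and 1.06e-15 for Cdkn1c). Dlk1 was lower in ectoderm by 2.97 in the mandibular prominence at E12.5, the widest layer gap among the 8 genes, and higher by 0.51 in the frontonasal prominence at E11.5.

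**Figure D4:**
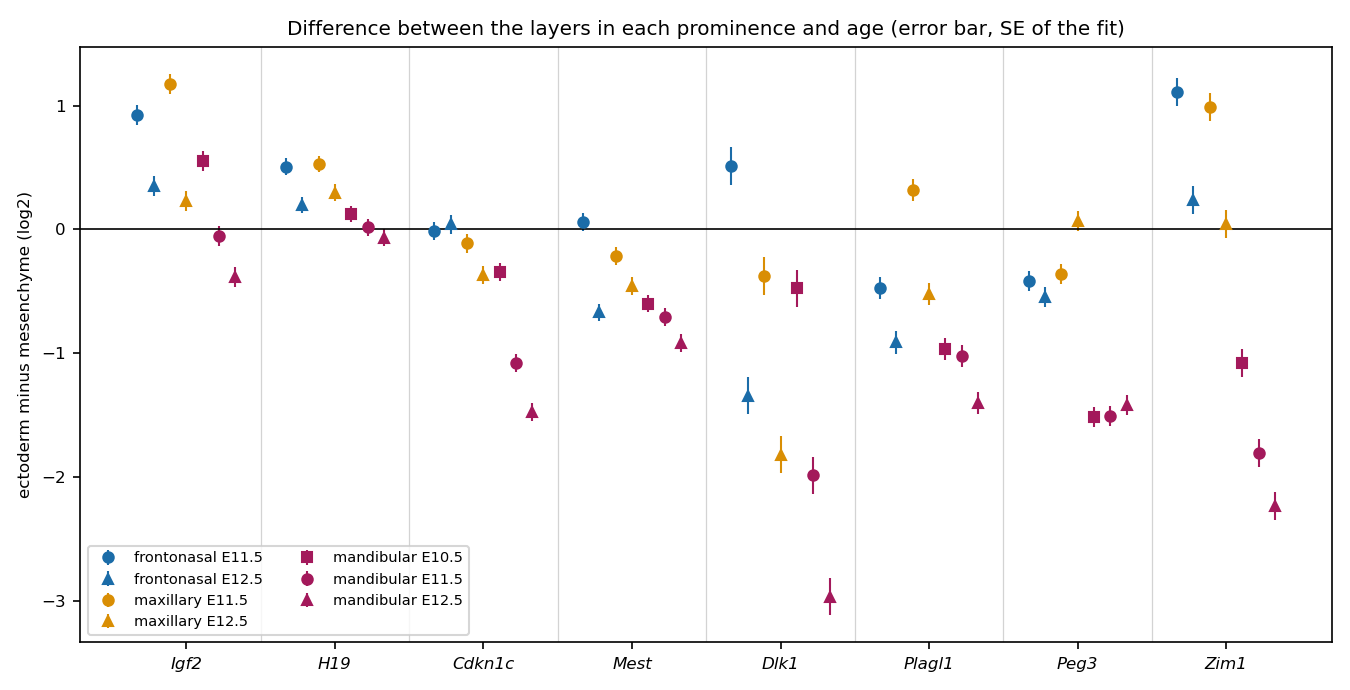
Ectoderm minus mesenchyme difference in log2 value (vertical axis) for each gene in each of the 7 combinations of prominence and age; error bars are SE of the fit. Mandibular differences lie below the frontonasal and maxillary ones of the same age for all 8 genes. Dlk1, Plagl1, Zim1, Igf2 and H19 have combinations on both sides of 0 in which the arrays of the layers do not overlap.

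With age, Dlk1 and Mest fell and Cdkn1c rose, in ectoderm as well as in mesenchyme where the test called them. For Dlk1 in mesenchyme that call was from E10.5 to E11.5 only, as a mean of frontonasal and mandibular tissue. In mandibular mesenchyme Dlk1 did not fall, with means of 10.87, 11.12 and 11.31 at E10.5, E11.5 and E12.5. In ectoderm from E11.5 to E12.5, 4 of the 8 genes were called, against 28.7% of probe sets, 16.8% as lower and 11.9% as higher. Dlk1 fell by 1.55 ± 0.09 on the log2 scale (2.92-fold, limma adjusted p = 1.73e-16), with every E12.5 array at or below 8.42 and every E11.5 array at or above 8.67. In frontonasal ectoderm it had 6.84, 7.10 and 7.29 at E12.5, against 9.41, 9.19 and 9.26 at E11.5. The fall was 2.21 in frontonasal, 1.65 in maxillary and 0.79 in mandibular ectoderm, and these differed from each other (interaction of age and prominence in ectoderm, adjusted p = 4.58e-05). That interaction was called for 3 of the 8 genes, Dlk1, Mest and Plagl1, against 7.87% of probe sets, and the call of Plagl1 was lost with arrays centred on their medians (adjusted p = 0.0722) or with any of 5 single arrays left out (0.0504 to 0.127). In mandibular ectoderm Dlk1 averaged 10.40 ± 0.13 at E10.5, 9.13 ± 0.44 at E11.5 and 8.34 ± 0.07 at E12.5 (SD, n = 3 each).

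Mest fell by 0.61 ± 0.04 in ectoderm from E11.5 to E12.5 (adjusted p = 2.09e-14), again with no overlap between the ages. It had 11.27, 11.14 and 11.09 in frontonasal ectoderm at E12.5, against 12.26, 12.12 and 12.26 at E11.5. The fall was 1.05 in frontonasal, 0.48 in maxillary and 0.31 in mandibular ectoderm (interaction adjusted p = 4.52e-06). Peg3 rose by 0.18 ± 0.05 (adjusted p = 0.00353) and Cdkn1c by 0.17 ± 0.04 (adjusted p = 0.00245). In the same interval neuronal markers fell for 8 of 10 genes in ectoderm (median −0.70), erythroid markers for 7 of 10 (median −0.76), cranial mesenchyme markers for 5 of 10 (median −0.42), endothelial markers for 4 of 10 and cell cycle genes for 5 of 8, and the part of these lists was not tested. From E10.5 to E11.5, which was sampled in mandibular ectoderm only, Dlk1 fell by 1.27 ± 0.15 and Mest by 0.25 ± 0.07, while Plagl1 rose by 0.50 ± 0.09 and Cdkn1c by 0.28 ± 0.07, against 18.4% of probe sets called. All 10 cranial mesenchyme markers were higher at E11.5 than at E10.5 in that ectoderm, with group means of 7.86 at E11.5 and 5.91 at E10.5, as were 7 of 10 endothelial and 7 of 10 erythroid markers, and their part in these changes was not tested. Cdkn1c was not called without replicate 3 (0.22) and Mest not without replicate 1 (−0.23) of that ectoderm at E11.5, nor was Mest with centred arrays (−0.21).

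In mesenchyme from E11.5 to E12.5, 5 of the 8 genes rose and 1 fell, against 36.7% of probe sets called, 19.4% as higher and 17.3% as lower. Zim1 rose by 0.66 ± 0.07 (adjusted p = 2.45e-10), Igf2 by 0.59 ± 0.05 (adjusted p = 9.95e-13), Plagl1 by 0.46 ± 0.05, Cdkn1c by 0.37 ± 0.04 and H19 by 0.23 ± 0.04. Mest fell by 0.22 ± 0.04 (adjusted p = 4.82e-05), and Dlk1 (−0.12, 95% interval −0.30 to 0.06) and Peg3 (0.05, −0.05 to 0.14) were not called. The rise of Plagl1 was 1.02 in maxillary mesenchyme, against 0.14 in frontonasal and 0.21 in mandibular mesenchyme (interaction of age and prominence in mesenchyme, adjusted p = 6.20e-06). That interaction was called for 3 of the 8 genes, Plagl1, Igf2 and H19, against 5.02% of probe sets, and the call of H19 was lost with centred arrays (adjusted p = 0.314) and with most single arrays left out (0.0533 to 0.105). Igf2 rose by 0.70 in frontonasal and 0.93 in maxillary mesenchyme, against 0.15 in mandibular mesenchyme (interaction adjusted p = 4.10e-05). In the same interval 12 of 15 muscle markers rose (median 0.48), as did 8 of 10 cartilage and bone markers (median 0.66) and 6 of 12 epithelial markers. Cell cycle genes fell for 8 of 8 tested, erythroid markers for 8 of 10 (median −0.88) and neuronal markers for 5 of 10, with 1 neuronal marker higher, and the part of these lists was not tested.

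In mesenchyme from E10.5 to E11.5, in the frontonasal and mandibular prominences, 6 of the 8 genes were called, against 26.1% of probe sets. Cdkn1c rose by 0.86 ± 0.05 (adjusted p = 4.83e-15), the largest of them, with a mean of 11.17 ± 0.03 in frontonasal mesenchyme at E11.5, against 10.47 ± 0.04 at E10.5 (SD, n = 3 each). In mandibular mesenchyme it had 12.28, 12.29 and 12.25 at E11.5, against 11.34, 11.18 and 11.26 at E10.5. Neither prominence's ages overlapped. Plagl1 rose by 0.63 ± 0.06, Igf2 by 0.32 ± 0.06 and H19 by 0.24 ± 0.05, while Dlk1 fell by 0.51 ± 0.11 and Mest by 0.26 ± 0.05. Dlk1's mean covers a difference of −1.26 in frontonasal mesenchyme and of 0.24 in mandibular mesenchyme, and whether these differ was not tested. In that interval erythroid markers rose for 7 of 10 genes (median 0.68), cranial mesenchyme markers for 5 of 10 (median 0.53) and leukocyte markers for 4 of 10, with 1 lower. Skeletal muscle markers rose for 8 and fell for 1 of 15 genes, and cell cycle genes fell for 5 of 8. The part of these lists was not tested.

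The change from E11.5 to E12.5 differed between the layers for 7 of the 8 genes (interaction of layer and age, against 23.9% of probe sets). For each of the 7 the ectoderm change was the more negative, from 1.43 ± 0.12 below the mesenchyme change for Dlk1 to 0.20 ± 0.06 below it for Cdkn1c. With arrays centred on their medians, H19 (−0.17) and Cdkn1c (−0.16) were not called. Peg3 was not called, at 0.13 ± 0.07 (adjusted p = 0.171), and was called at 0.15 without the 3 arrays that stood apart and at 0.17 without replicate 3 of frontonasal ectoderm at E12.5 alone.

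Correlations between the genes were higher over the mesenchyme than over the ectoderm groups, as a description over group means that share their scaling. Over the 8 mesenchyme groups, all 28 pairs of genes had a correlation above 0, with a median of 0.84 and a range of 0.17 to 0.96. Over the 7 ectoderm groups, 18 of the 28 pairs were above 0, with a median of 0.28 and a range of −0.91 to 0.83. The neighbours Igf2 and H19 reached 0.96 and the neighbours Peg3 and Zim1 0.95 in mesenchyme. Plagl1 and Igf2, which lie on different chromosomes, reached 0.95 there too. In ectoderm Igf2 and H19 had 0.38, and Peg3 and Zim1 0.71. The lowest ectoderm value, −0.91, was that of Dlk1 and Cdkn1c, and Cdkn1c and Mest had −0.87.

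The order of the 15 group means set each gene apart, with neighbouring groups often overlapping. Dlk1 was highest in mandibular mesenchyme at E12.5 (11.31), E11.5 (11.12) and E10.5 (10.87). Neighbouring ages overlapped there, while the E12.5 arrays (11.24 to 11.35) all lay above the E10.5 arrays (10.68 to 11.17). Dlk1 was lowest in maxillary and frontonasal ectoderm at E12.5 (both 7.08). Of its 14 pairs of neighbouring groups, 9 overlapped. Zim1's 3 mandibular mesenchyme groups (9.56, 9.10 and 8.49) did not overlap with each other or with the next group, mandibular ectoderm at E10.5 (7.41), and its lowest group was frontonasal mesenchyme at E11.5 (5.61). Peg3's 3 mandibular mesenchyme groups (11.56, 11.54 and 11.47) overlapped with each other and stood above the next group, frontonasal mesenchyme at E12.5 (10.29). Below that, Peg3's other neighbours mostly overlapped down to frontonasal ectoderm at E11.5 (9.61).

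For Cdkn1c the order followed age within each prominence in mesenchyme, and over all groups mandibular mesenchyme at E12.5 (12.70) and E11.5 (12.27) and maxillary mesenchyme at E12.5 (11.66) stood at the top without overlap. Frontonasal mesenchyme at E10.5 (10.47) was at the bottom. Plagl1 was lowest in maxillary mesenchyme at E11.5 (8.39), and that group overlapped with no other. Mest ran from mandibular mesenchyme at E10.5 (12.83) to frontonasal ectoderm at E12.5 (11.17). Igf2 and H19 had no overlap-free step among their upper groups: 12 of 14 and 11 of 14 neighbouring pairs overlapped, and the lowest groups were maxillary mesenchyme at E11.5 for Igf2 (10.86) and frontonasal mesenchyme at E10.5 for H19 (12.41).

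Among named genes, those with the most similar profile over the 15 group means were found for each gene by Pearson correlation, as a description. Igf2 and H19 were each other's closest match at 0.95. Peg3 was closest to Nr5a2 (0.96), Popdc2 (0.94) and Usp29 (0.94), the last an imprinted gene of the Peg3 cluster. Zim1 was closest to Hand2 (0.93), a transcription factor of the mandibular arch, then to Usp29 (0.89) and Zadh2 (0.88). Dlk1 was closest to Chrdl1 (0.92), Clcn5 (0.90) and Mest (0.89), and Mest to Fndc3c1 (0.93), Zcchc3 (0.92) and Gga2 (0.92). Plagl1 was closest to Itm2a (0.95), Nexn (0.93) and Rtl3 (0.91). Cdkn1c was closest to Nrk (0.93), then to Myod1 (0.90), a muscle-forming transcription factor, and Fgf7 (0.89).

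Of 65 other imprinted genes listed, 37 had a row in the table. They were listed by name, with earlier results of these data known, and whether each is imprinted in facial tissue was not measured. In frontonasal against mandibular mesenchyme 19 of the 37 were lower and 2 higher. There 20.3% of all probe sets and 28.0% of those with a symbol were called. The median difference of the 37 was −0.28, against −0.02 for all probe sets tested. In maxillary against mandibular mesenchyme 16 were lower and 1 higher, with a median of −0.29 against 0.01. The called shares there were 9.98% of all probe sets and 13.8% of those with a symbol. Meg3, Rian and Mirg, noncoding RNAs of the Dlk1 cluster, were lower by 1.56, 1.82 and 1.45 in frontonasal and by 1.20, 1.15 and 1.16 in maxillary mesenchyme. Usp29 was lower by 1.36 and Magel2, of the Prader-Willi region, by 1.17 in maxillary mesenchyme. Of the 37 genes, 11 had their highest mean in mandibular mesenchyme at E12.5, where 9.35% of all probe sets tested peak. Another 6 peaked there at E11.5, against 1.96% of all, and 4 at E10.5, against 14.1% of all, a share no higher than the background. In ectoderm 10 were lower and 1 higher in frontonasal than in mandibular tissue. The number called was near the background of 23.1% of all probe sets and 27.2% of those with a symbol. In maxillary ectoderm 4 were lower, where 5.04% of all and 6.92% of those with a symbol were called. Between the layers the list was split, with 18 lower and 13 higher in ectoderm. That number is near the background of 69.6% of all probe sets and 79.3% of those with a symbol called.

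**Figure D5:**
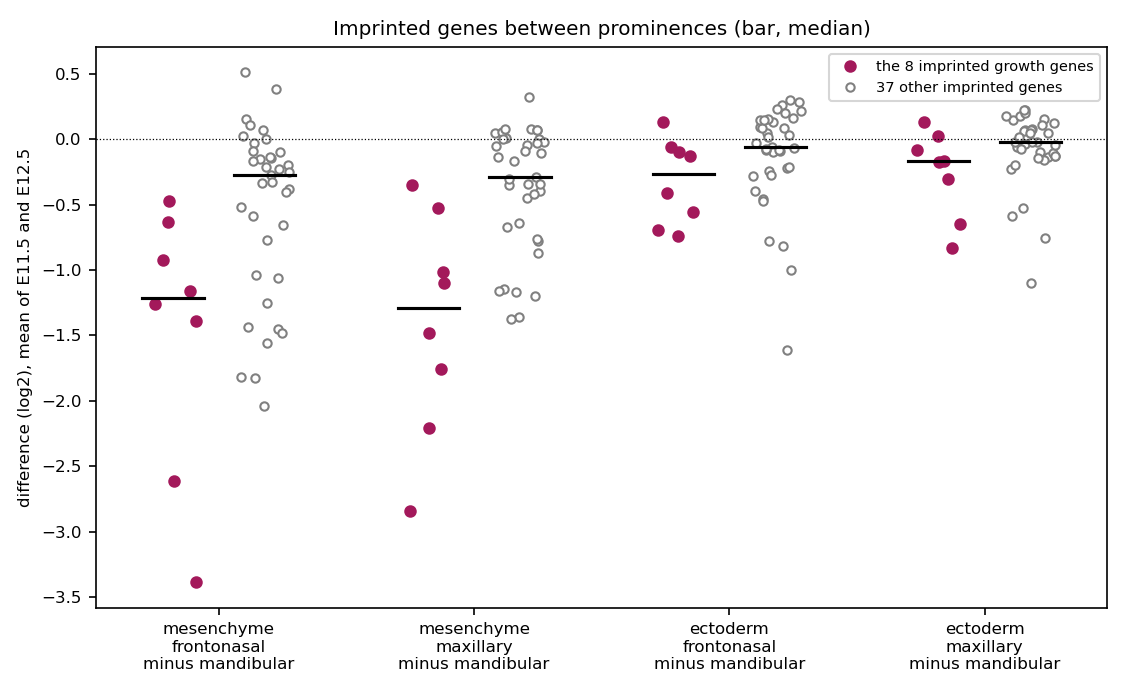
Prominence differences in log2 value (vertical axis), averaged over E11.5 and E12.5, for the 8 imprinted growth genes and 37 other imprinted genes in mesenchyme and ectoderm; bars are medians. In mesenchyme the 8 genes lie wholly below 0, and the others have medians of −0.28 and −0.29.

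Gene lists that act in the same pathways were divided. Of 29 genes of IGF and insulin signalling, 10 were higher and 3 lower in frontonasal than in mandibular mesenchyme, and 2 were higher and 8 lower in maxillary mesenchyme. Of all probe sets tested, 20.3% and 9.98% were called in these comparisons, and 28.0% and 13.8% of those with a symbol. Igf2r, the imprinted receptor that clears IGF2, was lower by 0.77 and 0.78 in these comparisons, and the binding protein gene Igfbp3 by 0.74 and 0.70. Igf2r is also counted among the other imprinted genes. Grb7, an adaptor related to Grb10, was higher by 1.70 in frontonasal mesenchyme. Of 6 other CDK inhibitor genes, 1 was lower in frontonasal mesenchyme, Cdkn2c by 0.41, and limma called 0 in maxillary mesenchyme, where 2 had an unadjusted p under 0.05. Of 15 Notch-related genes, 5 were higher in frontonasal mesenchyme, among them Hey1 (1.04) and Jag2 (0.85), and in maxillary mesenchyme 1 was higher and 2 were lower. The number called in frontonasal mesenchyme is near the background share of 28.0%. With age in mesenchyme, 15 of the 29 IGF genes rose and 2 fell from E11.5 to E12.5, with Igfbp5 up by 1.08 and the protease gene Pappa by 0.94. In that interval 36.7% of all probe sets were called, 19.4% as higher and 17.3% as lower, and 46.5% of those with a symbol.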

How the data were processed

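RNA from 45 pools of facial tissue was read on Affymetrix Mouse Gene 1.0 ST arrays. The deposited values are log2 expression made with RMA in Affymetrix Power Tools 1.91 on mouse build mm9, per the submitters' processing notes. The authors' deposited p-values give detection above background, and their q-values come from a three-way model. No batch is given in the labels.

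The 8 genes were found by symbol in that model table. The members, gene lists and tests were chosen with earlier results of these data known. With limma 3.58.1 (R 4.3.3), 15 group means were fitted to the 14472 probe sets whose variance lay above the median, and contrasts averaged matched prominences and ages with equal weight. Adjusted p-values are Benjamini-Hochberg values over these probe sets, at a threshold of 0.05. The same fit was tested on simulated data. The number of arrays limits the precision, and p-values measure the spread between pools.

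All 8 genes are named. From a gene list up to 6 genes, and from a marker list up to 4, may be named per comparison, those called with the largest differences. The 3 named genes most correlated with a member are given. Undetected markers and the named arrays were chosen after their values were seen. Alternatives were other filters, scalings, weights, moderation, arrays left out, a replicate block and only the groups compared. Figures were drawn with matplotlib 3.10.9.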

Additional observations from a re-analysis of the deposited data

Results flagged for a closer look

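Effects that differed between prominences, ages or layers by an interaction test in limma are listed here with the Benjamini-Hochberg adjusted p of that test. The difference between ectoderm and mesenchyme depended on the prominence for Zim1 (5.69e-20), Cdkn1c (1.06e-15), Peg3 (1.05e-14), Dlk1 (1.22e-12), Igf2 (1.30e-11), Plagl1 (2.41e-11), Mest (4.04e-07) and H19 (4.02e-06). For all 8 the frontonasal and maxillary values of ectoderm minus mesenchyme were above the mandibular one, by 2.69 and 2.54 for Zim1 and by 0.38 and 0.44 for H19.

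The change from E11.5 to E12.5 differed between ectoderm and mesenchyme for Dlk1 (2.49e-11), Igf2 (3.65e-09), Zim1 (6.85e-08), Plagl1 (2.67e-07), Mest (1.70e-06), H19 (0.00367) and Cdkn1c (0.0122).

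In mesenchyme that change differed between prominences for Plagl1 (6.20e-06), Igf2 (4.10e-05) and H19 (0.0429). H19 moved by 0.37 in frontonasal, 0.31 in maxillary and 0.03 in mandibular mesenchyme. In ectoderm it differed between prominences for Mest (4.52e-06), Dlk1 (4.58e-05) and Plagl1 (0.0267), with Plagl1 moving by −0.30 in frontonasal, 0.18 in maxillary and −0.17 in mandibular ectoderm.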

How the results depend on the processing

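The differences of all 8 genes between layers, between frontonasal and mandibular mesenchyme, between maxillary and mandibular mesenchyme, and the interaction of layer and prominence were called under every alternative tried. Of 1088 values of single genes under the alternatives, 1038 kept their direction and side of the threshold, 18 lost the call, 32 gained one and 0 reversed. With single arrays left out, 2158 of 2208 did, 40 lost the call, 10 gained one and 0 reversed. The other filters, the moderation, the replicate block and the fit of only the groups compared leave the differences unchanged (largest shift 0.0). No direction could reverse under those settings. Interactions tested by moderated F carry no sign, so they could not reverse under any setting. Weaker calls were H19 in the interaction of age and prominence in mesenchyme (adjusted p = 0.314 with arrays centred on their medians, 0.0809 with only the groups compared, and called with 2 of 18 single arrays left out, at 0.0296 to 0.105) and Plagl1 in that of ectoderm (0.0722 centred, 0.0528 quantile normalized again, 0.155 with only the groups compared, 0.0559 without the 3 arrays that stand apart).

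Replicate numbers did not pair the arrays: over 21 pairs of same-numbered ectoderm and mesenchyme arrays the correlation of deviations from the group means ran from −0.42 to 0.36, and 10 pairs correlated best with their own number. With the replicate block, 8 genes were called for the layers and for each of the mandibular comparisons in mesenchyme.

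Counts that moved by over 1.5 times are these. With array weights, 2583 probe sets were called for maxillary against mandibular mesenchyme (1445 otherwise), 4108 for frontonasal against maxillary mesenchyme (2718), 1202 for maxillary against mandibular ectoderm (730), 1789 for the interaction of age and prominence in mesenchyme (727) and 2067 for that in ectoderm (1139). With only the groups compared, they were 931 for frontonasal against mandibular ectoderm (3348), 367 for frontonasal against maxillary ectoderm (1337) and 562 for the interaction of age and prominence in ectoderm. Without the 3 arrays that stand apart, 1705 were called for frontonasal against mandibular ectoderm, and leaving out single arrays gave 1918 to 5054 (replicate 3 of frontonasal ectoderm at E12.5 the lowest, replicate 2 the highest). Of the 8 genes, trended and robust moderation called 7 for frontonasal against mandibular ectoderm (4 otherwise). For maxillary against mandibular ectoderm it called 5 (3 otherwise), as did array weights and leaving out the 3 arrays. For frontonasal against maxillary ectoderm array weights called 5 and only the groups compared 0 (3 otherwise). For E11.5 against E10.5 in ectoderm only the groups compared called 2 (4 otherwise), and for the interaction of age and prominence in mesenchyme array weights called 5 (3 otherwise). The cause was not tested.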

Other observations

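With age the other imprinted genes were divided as well. From E11.5 to E12.5 in ectoderm, 5 of 37 were higher and 15 lower, against 28.7% of all probe sets and 36.2% of those with a symbol called, with Dcn higher by 2.15, Asb4 lower by 1.34, Peg10 lower by 1.31 and Th lower by 0.91. In mesenchyme over the same interval 10 were higher and 9 lower, near the background of 36.7% of all probe sets and 46.5% of those with a symbol called, with Dcn higher by 2.75, Meg3 higher by 0.84 and Asb4 lower by 0.95.

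Of 29 genes of IGF and insulin signalling, 17 were higher and 9 lower in ectoderm than in mesenchyme, against 69.6% of all probe sets and 79.3% of those with a symbol called between the layers. Grb7 (2.70), Htra1 (2.47), Igfbp2 (2.23) and Igfbp5 (1.83) were higher in ectoderm, and Igf1, the sister growth factor of Igf2, was lower there by 2.53.

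In the authors' deposited table, the q-value for age was 0.0620 for Peg3 and 0.431 for Zim1, and at most 0.00171 for the other 6 genes. For the interaction of age and layer that table gives Peg3 1.27e-09, Zim1 0.725 and H19 0.0521, where the limma contrast of E12.5 and E11.5 gave adjusted p-values of 0.171 for Peg3, 6.85e-08 for Zim1 and 0.00367 for H19. How the authors' terms weigh the ages and the missing combinations is not given in the sources used here, and the cause of the difference was not tested.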
